A study of Mus musculus with 9 samples.

Results

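The transcription factors described here are 10 genes known from the biology of epithelia, *Grhl1*, *Grhl2*, *Grhl3*, *Ovol1*, *Ovol2*, *Elf3*, *Ehf*, *Trp63*, *Klf4* and *Klf5*. Matching these symbols to the symbols printed on the array gave 12 probes of 8 genes, out of 25697 probes and 18120 symbols in all. *Grhl1* and *Grhl2* had no probe under these names, but the array carries probes under the older symbols *Tcfcp2l2* and *Tcfcp2l3*, which the RefSeq gene table lists as synonyms of these genes. In the same way *Zfp339* is an older symbol of *Ovol2*. The array's own gene description gave the current symbol for the *Tcfcp2l2* probes. It did not for those of *Tcfcp2l3* and *Zfp339*, which rest on the synonym alone. These 5 further probes were added after the data had been seen, are kept apart from the 12 in every count, and bring the total to 17 probes of all 10 genes.

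RNA came from E10.5 mouse embryos of the CD-1 strain, which had no genetic change and no treatment, and each array held the RNA of one pool of dissected tissue. There were 3 arrays of otic vesicles (OV), 3 of periotic tissue, which includes mesenchyme and hindbrain tissue next to the vesicle, and 3 of whole embryos from which the otic regions had been removed (embryo-minus-otic on the plots, called the remaining embryo in the text). The OV is the closed epithelial sac that gives rise to the inner ear. All pools came from 3 separate litters, so they are not all from different litters. Whether arrays with the same replicate number share a litter was not stated. The fit took the pools as independent, and its *q*-values rest on the spread between these pools. Because each pool mixes cell types, fewer cells of a type and less RNA per cell cannot be told apart.

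Grainyhead-like factors and Ovol zinc finger factors maintain the epithelial state, the former by activating genes for cell junctions and the latter by repressing genes of the mesenchymal state such as *Zeb1*. Elf3 and Ehf are Ets factors found mainly in epithelia, while Klf4 and Klf5 are Krüppel-like factors that control differentiation and growth in surface and gut linings. p63, the product of *Trp63*, is the regulator of stratified epithelia and of the basal layer of the skin. The OV derives from placodal ectoderm, and its wall is a simple epithelium. *GRHL2* has been linked to inherited hearing loss in people.

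Intensities are given as log2 values after quantile normalization, which gives all 9 arrays the same distribution, with a median of 6.08 over all probes. A probe is called detected on an array where its detection *p*-value, a rank among the negative control beads, was under 0.01. The lowest normalized value that passed lay between 6.14 and 6.24, depending on the array, and from 43.9% to 47.3% of all probes passed. A difference was called when its *q*-value, the limma *p* after Benjamini-Hochberg adjustment across the whole array, was under 0.05. The fold Δ comes from intensities that still hold the background, so it understates the change of dim probes such as most of those described here. Where no array of the dimmer group was detected, the fold Δ is a lower bound. For this bound, each array of the dim group was set to the lowest value that passed on it wherever the probe itself lay below that value. The bound, written as "at least", allows for the background only and not for the spread between arrays.

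Otic markers were brightest in OV and neural markers in periotic tissue, but mesenchyme markers did not set periotic tissue apart from OV. Of 12 probes for 8 OV genes, 9 were called higher in OV in each comparison, and their summed intensity was 5743 to 6347 in OV against 1003 to 1126 for periotic tissue and 1248 to 1326 for the remaining embryo. Over all probes, 5.07% to 5.89% were called in each direction between OV and a non-otic group. Hindbrain and neural tube markers summed to 2380 to 2954 in periotic tissue and to 564.7 to 612.8 in OV, with 7 of 10 probes lower in OV. Mesenchyme markers were about as bright in OV (1461 to 1652) as in periotic tissue (1494 to 1830), and none of their 10 probes was called between these groups. Red blood cell markers were lower in OV than in either non-otic group for 7 of 7 probes, and ranged from 14290 to 35230 over the OV arrays. Heart muscle markers, bright in the remaining embryo, ranged from 269 to 682.8 over the OV arrays. The part of these other cells in the results below was not tested.

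Of the 12 probes, 5 were detected on no array (41.7%, against 45.9% of all probes), and 4 were detected on all arrays of at least one group (33.3%, against 46.1% of all probes). These 4 are the probes of *Ovol2*, *Klf5* and *Trp63* and one of the 3 probes of *Elf3*. In OV against the remaining embryo, 2 of the 12 probes were called higher (*Ovol2* and *Klf5*), where 5.89% of all probes were, and 1 was called lower (*Trp63*), where 5.51% of all probes were. In OV against periotic tissue, 3 were called higher (*Ovol2*, *Klf5* and *Elf3*) beside 5.07% of all probes, and 1 lower (*Trp63*) beside 5.15%. In periotic tissue against the remaining embryo, 2 were called lower (*Klf5* and *Trp63*) beside 2.95% of all probes, and none was called higher beside 2.86%. The calls of *Klf5* against the remaining embryo, from OV and from periotic tissue, were lost under several alternatives, given with that gene. Of the 5 probes under older symbols, 3 were called higher in OV than in the remaining embryo and 4 higher than in periotic tissue, and none was called lower in any comparison.

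Of all 17 probes, that of the grainyhead gene *Grhl2*, listed as *Tcfcp2l3* (ILMN_1257070), had the largest rise in OV over either non-otic group. Its normalized intensity was 8.97, 9.04 and 8.79 on the OV arrays, 6.78, 6.16 and 6.77 for periotic tissue and 6.96, 7.06 and 6.91 for the remaining embryo. Every OV array lay above every non-otic array, and periotic array 2 was the only array on which the probe was not detected. The mean in OV was 8.94 ± 0.127 (SD, *n* = 3), against 6.57 ± 0.354 in periotic tissue and 6.98 ± 0.0759 in the remaining embryo. OV exceeded the remaining embryo by 1.96 on the log2 scale (95% interval 1.66 to 2.25), a 3.88-fold Δ (limma *q* = 7.469e-08) that placed the probe 54th of 25697. OV exceeded periotic tissue by 2.37 (2.07 to 2.66), a 5.16-fold Δ (limma *q* = 7.434e-09) and the 38th highest of all probes. After background subtraction with neqc the fold Δ against periotic tissue was 8.41, and with any one array left out the log2 difference from periotic tissue lay between 2.16 and 2.47. Between the non-otic groups the ranges did not overlap, but the difference of -0.41 (-0.71 to -0.11) was not called (limma *q* = 0.1162).

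The other grainyhead genes were dim. *Grhl1* has 2 probes as *Tcfcp2l2*, on chromosome 12, of which ILMN_1246419 was detected on all 3 OV arrays, on no periotic array and on 1 remaining-embryo array. It gave 6.37, 6.37 and 6.65 for OV, 6.13, 6.0 and 6.13 for periotic tissue and 6.20, 6.11 and 6.30 for the remaining embryo, so that the OV arrays lay above all others by a small margin. OV was at least 1.21-fold higher than periotic tissue (log2 difference 0.38, 0.17 to 0.59, limma *q* = 0.01953). That call was lost without normalization between arrays (*q* = 0.522), without OV array 3 (*q* = 0.1095) and without periotic array 2 (*q* = 0.09353). Against the remaining embryo the difference was 0.26 (0.05 to 0.47, limma *q* = 0.1119). The second *Grhl1* probe and the probe of *Grhl3*, a gene of skin barrier formation and neural tube closure on chromosome 4 (ILMN_2971031), were detected on none of the 9 arrays. The *Grhl3* means were 5.69 for OV, 5.76 for periotic tissue and 5.80 for the remaining embryo.

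**Figure D1:**
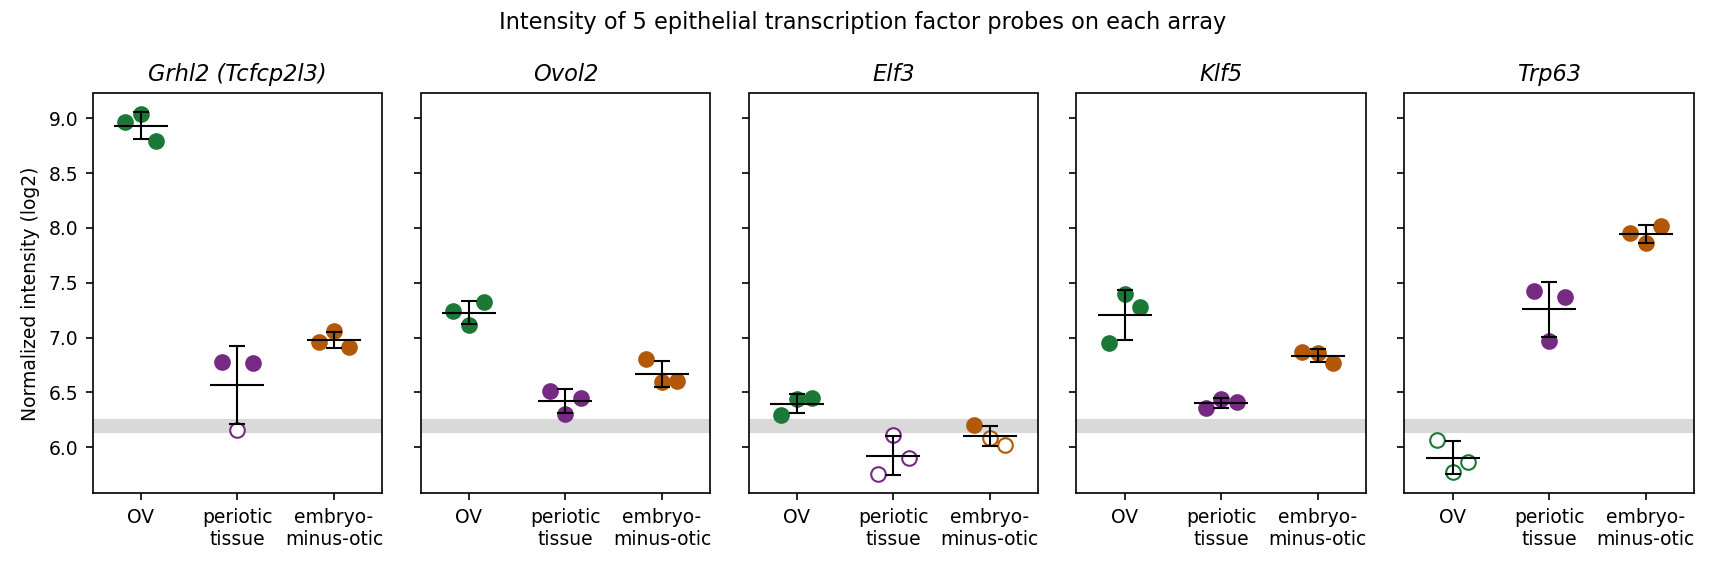
Normalized log2 intensity of 5 probes on each of the 9 arrays, by tissue group. Filled points are arrays on which the probe was detected and open points those on which it was not, the bars give the mean and SD over 3 arrays, and the grey band spans the lowest detected value of each array, from 6.14 to 6.24. The *Grhl2*, *Ovol2*, *Elf3* and *Klf5* probes were highest in OV, whereas the *Trp63* probe was detected on every non-otic array and on no OV array. The *Elf3* probe shown is ILMN_2850233, the only 1 of 3 *Elf3* probes called in any comparison.

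*Ovol2* was called higher in OV with each of its 3 probes, whereas *Ovol1* was not called. The probe that carries the current symbol (ILMN_3131909, chromosome 2) gave 7.24, 7.11 and 7.33 for OV, 6.51, 6.30 and 6.45 for periotic tissue and 6.81, 6.59 and 6.60 for the remaining embryo, and was detected on all 9 arrays. The lowest OV array lay above the highest array of either non-otic group. OV exceeded the remaining embryo by 0.56 (0.35 to 0.77), a 1.48-fold Δ (limma *q* = 0.000857), and periotic tissue by 0.81 (0.60 to 1.01), a 1.75-fold Δ (limma *q* = 2.445e-05). The first of these calls was lost when the arrays were not normalized (*q* = 0.1377). Periotic tissue and the remaining embryo did not overlap either, with a difference of -0.25 (-0.45 to -0.04) that was not called (limma *q* = 0.2002).

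The 2 probes listed as *Zfp339* showed *Ovol2* on the OV arrays alone. ILMN_2498592 gave 7.13, 7.08 and 7.04 for OV, 5.92, 5.65 and 5.78 for periotic tissue and 5.89, 6.03 and 6.01 for the remaining embryo. It was detected on the 3 OV arrays and on none of the other 6. OV was at least 1.82-fold higher than the remaining embryo (limma *q* = 4.555e-07) and at least 1.87-fold higher than periotic tissue (limma *q* = 6.418e-08). ILMN_2498591 had the same pattern of detection, with bounds of 1.42-fold (limma *q* = 4.978e-06) and 1.45-fold (limma *q* = 7.175e-06). All *Ovol2* probes thus had the same direction, but they differed on whether the non-otic groups were detected.

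*Ovol1*, on chromosome 19 (ILMN_2617858), gave 6.26, 6.26 and 6.15 for OV, 6.04, 5.74 and 6.06 for periotic tissue and 6.06, 5.87 and 5.95 for the remaining embryo. It was detected on 2 OV arrays and on no other array, and the OV arrays lay above all others. The difference was 0.26 (0.05 to 0.47, limma *q* = 0.1226) against the remaining embryo and 0.27 (0.06 to 0.49, limma *q* = 0.1145) against periotic tissue, neither of which was called. With neqc the first was called (0.53, *q* = 0.04343).

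The sequences upstream of *Ovol2* and *Elf3*, both called higher in OV than in periotic tissue, were searched for E-boxes and other motifs. *Zeb1* and *Zeb2*, whose products bind E-boxes, were called lower in OV than in periotic tissue (values given with the mesenchymal genes). Whether Zeb proteins act on *Ovol2* or *Elf3* in these tissues was not tested. The sequences hold the 250 bases before a start site of each gene, from RefSeq on GRCm38.p6, 5′ to 3′ on the minus strand. Capitals mark CAGGTG, the E-box bound by Zeb and Snail repressors, and CCACCC, the core of the box bound by Krüppel-like factors, each searched on both strands.
Elf3: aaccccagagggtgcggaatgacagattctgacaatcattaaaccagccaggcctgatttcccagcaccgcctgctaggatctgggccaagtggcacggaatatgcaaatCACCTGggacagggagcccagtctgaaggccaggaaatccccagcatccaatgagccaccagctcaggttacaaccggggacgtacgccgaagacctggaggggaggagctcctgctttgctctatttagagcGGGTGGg
Ovol2: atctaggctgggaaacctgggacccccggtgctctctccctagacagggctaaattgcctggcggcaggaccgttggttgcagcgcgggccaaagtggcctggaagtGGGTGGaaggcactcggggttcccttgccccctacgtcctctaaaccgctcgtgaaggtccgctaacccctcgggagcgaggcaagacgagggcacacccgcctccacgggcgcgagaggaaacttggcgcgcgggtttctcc
The *Elf3* window lies at chr1:135258473-135258722 and the *Ovol2* window at chr2:144331363-144331612. *Elf3* had 1 match to CAGGTG and *Ovol2* had 0, and 17.2% of 32851 promoter windows of the same length held one. The wider E-box CANNTG, which contains CAGGTG, matched at 2 places in *Elf3* and at 0 in *Ovol2*, beside 66.2% of all windows. Both had 1 match to CCACCC (28.1% of windows). The grainyhead motif AACNGGTT was found in neither (1.79% of windows). GC content was 57.2% in *Elf3* and 65.2% in *Ovol2*. Of the 10 genes, 5 had a promoter entry, and *Grhl2* and *Klf5*, also called higher in OV than in periotic tissue, did not. *Grhl1* had an entry and a probe called higher in OV than in periotic tissue, but its sequence was not searched and is not shown.

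Of the Ets factors, *Elf3* was measured by 3 probes on chromosome 1, which did not behave alike. ILMN_2850233 gave 6.30, 6.44 and 6.45 for OV, 5.75, 6.11 and 5.90 for periotic tissue and 6.20, 6.08 and 6.02 for the remaining embryo. It was detected on all 3 OV arrays, on no periotic array and on 1 remaining-embryo array, and the OV arrays lay above all others. OV was at least 1.16-fold higher than periotic tissue (log2 difference 0.47, 0.26 to 0.69, limma *q* = 0.005148), a call that was lost without normalization between arrays (*q* = 0.1927). Against the remaining embryo the difference was 0.30 (0.08 to 0.51, limma *q* = 0.08022).

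ILMN_2692072, the second *Elf3* probe, was detected on 2 OV, 1 periotic and 2 remaining-embryo arrays, with overlapping groups. Its differences were -0.04 (limma *q* = 0.8836) against the remaining embryo and 0.11 (limma *q* = 0.6444) against periotic tissue. The third, ILMN_2621659, was detected on no array, and so was the single probe of *Ehf*, the other Ets factor, whose means were 5.70 for OV, 5.66 for periotic tissue and 5.57 for the remaining embryo. The rise of *Elf3* in OV therefore rests on 1 probe of 3.

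*Klf5*, a factor of proliferating epithelial layers (ILMN_1253387), was detected on all 9 arrays. Its values were 6.95, 7.39 and 7.28 for OV, 6.35, 6.44 and 6.41 for periotic tissue and 6.87, 6.86 and 6.76 for the remaining embryo. All 3 groups were separate, with periotic tissue lowest, but OV array 1 lay only just above the remaining-embryo arrays. OV exceeded periotic tissue by 0.81 (0.58 to 1.03), a 1.75-fold Δ (limma *q* = 5.951e-05). OV exceeded the remaining embryo by 0.38 (0.15 to 0.60), a 1.30-fold Δ (limma *q* = 0.03032), and periotic tissue was 1.35-fold lower than that group (-0.43, -0.66 to -0.21, limma *q* = 0.02281). The call of OV against the remaining embryo was lost in 6 of 17 alternatives. These were no normalization between arrays (*q* = 0.6685), a fit of only the 2 groups compared (*q* = 0.05705), and the absence of OV array 2 (*q* = 0.1539), OV array 3 (*q* = 0.1186), remaining-embryo array 2 (*q* = 0.05397) or remaining-embryo array 3 (*q* = 0.09937). The call between the non-otic groups was lost with median normalization (*q* = 0.1625) and without normalization (*q* = 0.2564), and also without any one of the periotic arrays or without remaining-embryo array 1 or 2, at *q* from 0.05617 to 0.09767.

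*Klf4*, a factor of the differentiating layers of skin and gut on chromosome 4, was at or near background. Of its 3 probes, ILMN_1221264 and ILMN_1241903 were detected on no array. ILMN_2999439 was detected on 1 periotic array (6.23) and on 1 remaining-embryo array (6.38), with means of 5.94 for OV, 5.99 for periotic tissue and 6.11 for the remaining embryo. None of its differences was called, and the limma *q* lay between 0.5211 and 0.9212.

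*Trp63* ran opposite to *Grhl2*, *Ovol2* and *Klf5*, and was the only one of the 10 genes called lower in OV. Its probe (ILMN_1216742, chromosome 16) gave 6.07, 5.77 and 5.86 for OV, 7.43, 6.97 and 7.37 for periotic tissue and 7.95, 7.86 and 8.02 for the remaining embryo. It was detected on all 6 non-otic arrays and on none of the OV arrays, and the 3 groups did not overlap. The means were 5.90 ± 0.151 (SD, *n* = 3) for OV, 7.26 ± 0.249 for periotic tissue and 7.95 ± 0.0786 for the remaining embryo. OV was at least 3.35-fold lower than the remaining embryo (limma *q* = 8.008e-09), the 61st lowest difference of 25697, and at least 2.08-fold lower than periotic tissue (limma *q* = 7.692e-07), the 155th lowest. Periotic tissue was 1.61-fold lower than the remaining embryo (-0.69, -0.94 to -0.44, limma *q* = 0.001664), a call that was lost with median normalization (-0.49, *q* = 0.1138). After neqc the fitted fold Δ between OV and the remaining embryo was 8.97. No second probe for *Trp63* was measured.

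Surface ectoderm and stratified epithelium, where p63 acts, were followed with a list of 10 genes and 13 probes, of which 8 were detected on no array. In OV against the remaining embryo 3 probes were higher and 1 lower, beside 5.89% and 5.51% of all probes. The same numbers held against periotic tissue, beside 5.07% and 5.15% of all probes. List medians were -0.02 and 0.02, beside 0.00 over all probes in both. The one lower probe was *Krt14* (as *Krt1-14*), the keratin of basal skin cells and a gene known to depend on p63. It was detected on 0 OV, 2 periotic and 3 remaining-embryo arrays and was at least 1.92-fold lower in OV than in the remaining embryo (limma *q* = 8.901e-07). The higher probes included those of *Fermt1* and *Wnt6*, genes of adhesion and signalling that are not limited to stratified layers. In OV, *Fermt1* exceeded periotic tissue by 1.61 (limma *q* = 6.941e-07) and *Wnt6* by 1.30 (limma *q* = 5.44e-06). Of the basal genes, *Krt5* and *Dsg3* were detected on no array, and *Krt15* on 1 OV, 3 periotic and 2 remaining-embryo arrays with no call (all named after their values were seen). The summed intensity of the list was 1461 to 1560 for OV, 946.6 to 1074 for periotic tissue and 1210 to 1232 for the remaining embryo, and its part in the *Trp63* difference was not tested.

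**Figure D2:**
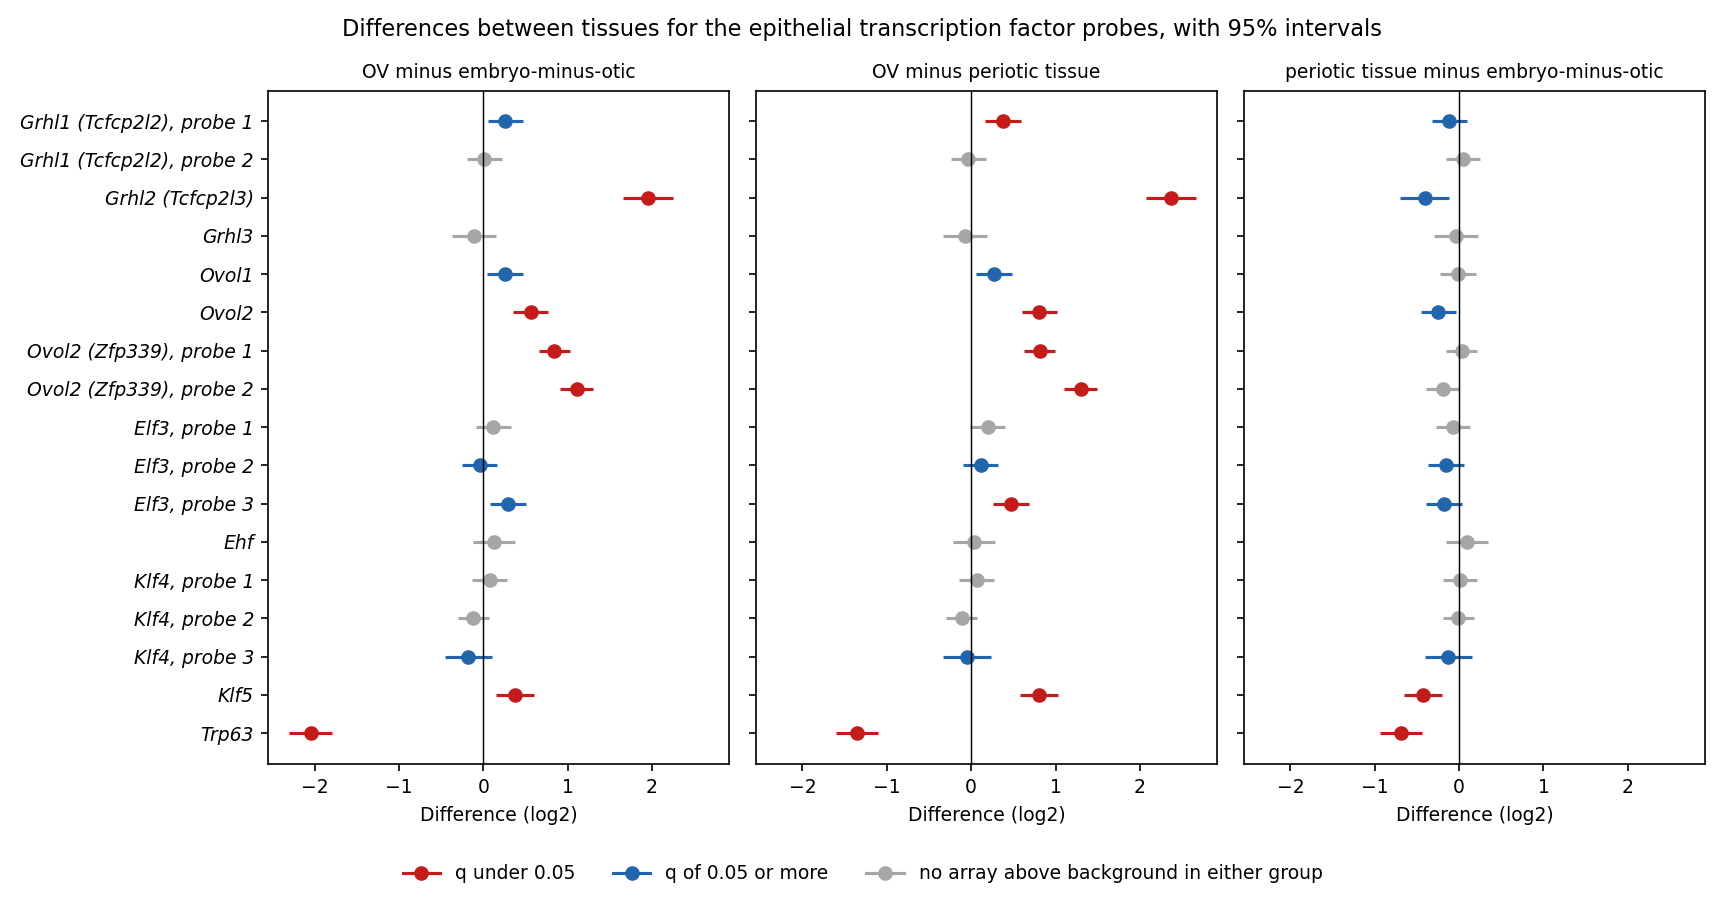
Differences between tissue groups on the log2 scale for all 17 probes, with points for the fitted difference and lines for its 95% interval. Red marks *q* under 0.05, blue *q* of 0.05 or more, and grey probes detected on no array of either group. *Grhl2* lies farthest to the right, at 1.96 and 2.37, and *Trp63* farthest to the left, at -2.04 and -1.35, in the comparisons of OV with the remaining embryo and with periotic tissue.

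Over the 9 arrays, the probes higher in OV correlated with each other and *Trp63* ran against them. Pearson's *r* was 0.955 between *Grhl2* and *Ovol2*, 0.865 between *Ovol2* and *Klf5* and 0.911 between *Elf3* (ILMN_2850233) and *Klf5*. The lowest was 0.717, between *Elf3* and *Grhl1* (ILMN_1246419). *Trp63* had *r* of -0.832 with *Grhl2*, -0.740 with *Ovol2*, -0.722 with *Elf3* and -0.613 with *Klf5*. The coefficients share the same 9 arrays in 3 groups and are given as a description. The probes were grouped by their direction in these arrays, so the signs largely follow from the group means and are not separate results.

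Among the 11849 probes detected on all arrays of at least one group, those most like *Ovol2* were *Stard10* (*r* = 0.990), *Mapk13* (0.988) and *Dnmt3b* (0.984). For *Elf3* they were *Igsf9* (0.962), *9430041O17Rik* (0.955) and *Dsg2* (0.953), and for *Klf5* *Ctf1* (0.972), *Bckdha* (0.971) and *9130404D14Rik* (0.969). All of these had their highest mean in OV and their lowest in periotic tissue. For *Trp63* they were *4930583H14Rik* (0.994), *Prickle1* (0.987) and *Hoxb4* (0.985). *Hoxb4*, a gene of the posterior hindbrain and trunk, had means of 5.97 for OV, 8.05 for periotic tissue and 9.35 for the remaining embryo, in the order found for *Trp63*. Probes picked by correlation over these arrays tend to share the order of group means, so these orders are not separate results.

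Epithelial genes known as targets or partners of these factors were higher in OV for most probes. The list was chosen with earlier results of these data known, so its counts are a description. *Cldn6*, *Esrp1* and *Prss8* were already among the study's top OV probes from these same arrays. Of 30 probes for 23 genes, 21 were higher and none lower than in the remaining embryo (5.89% and 5.51% of all probes). Against periotic tissue, 22 were higher and none lower (5.07% and 5.15% of all probes). The medians were 0.88 and 1.20, beside 0.00 over all probes in both. In periotic tissue, 10 probes were lower than in the remaining embryo (2.95% of all probes). *Esrp1*, listed as *Rbm35a*, a splicing regulator of epithelial isoforms, exceeded the remaining embryo 6.93-fold (limma *q* = 5.434e-09). *Cldn4*, a tight junction gene and a known grainyhead target, did so 4.35-fold (limma *q* = 1.641e-08), and *Prss8*, a membrane protease of epithelia, 5.41-fold (limma *q* = 3.981e-08). *Cldn6*, another tight junction gene, had the largest difference from periotic tissue in the list, with a 21.1-fold Δ (limma *q* = 1.433e-10). The summed intensity of the list was 15870 to 17040 for OV, 2378 to 2893 for periotic tissue and 3863 to 4818 for the remaining embryo, and whether the amount of epithelium sets the differences of *Grhl2*, *Ovol2*, *Elf3* and *Klf5* was not tested.

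Of the mesenchymal regulators and markers, 12 of 22 probes for 11 genes were lower in OV than in the remaining embryo (5.51% of all probes). Against periotic tissue, 3 were lower (5.15% of all probes). None was higher in either comparison (5.89% and 5.07% of all probes). The medians were -0.49 and -0.05. The 3 probes lower than in periotic tissue belong to *Zeb1*, *Zeb2* and *Vim*. *Zeb1* (as *Zfhx1a*), a repressor of epithelial genes that is itself repressed by Ovol factors, was 2.57-fold lower in OV than in periotic tissue (limma *q* = 3.309e-08) and 1.82-fold lower than in the remaining embryo (limma *q* = 6.237e-06). *Zeb2* (as *Zfhx1b*) was 3.56-fold lower than in periotic tissue (limma *q* = 1.114e-07), by the one of its 2 probes that was detected. *Vim*, the intermediate filament of mesenchymal and neural cells, differed by -2.01 (limma *q* = 5.041e-06). *Twist2* differed from the remaining embryo by -1.36 (limma *q* = 1.983e-07) but from periotic tissue by -0.26 (limma *q* = 0.1645). *Zeb1*, *Zeb2* and *Vim* are also genes of neural tissue, whose markers were brightest in periotic tissue. The part of neural tissue in these differences was not tested.

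**Figure D3:**
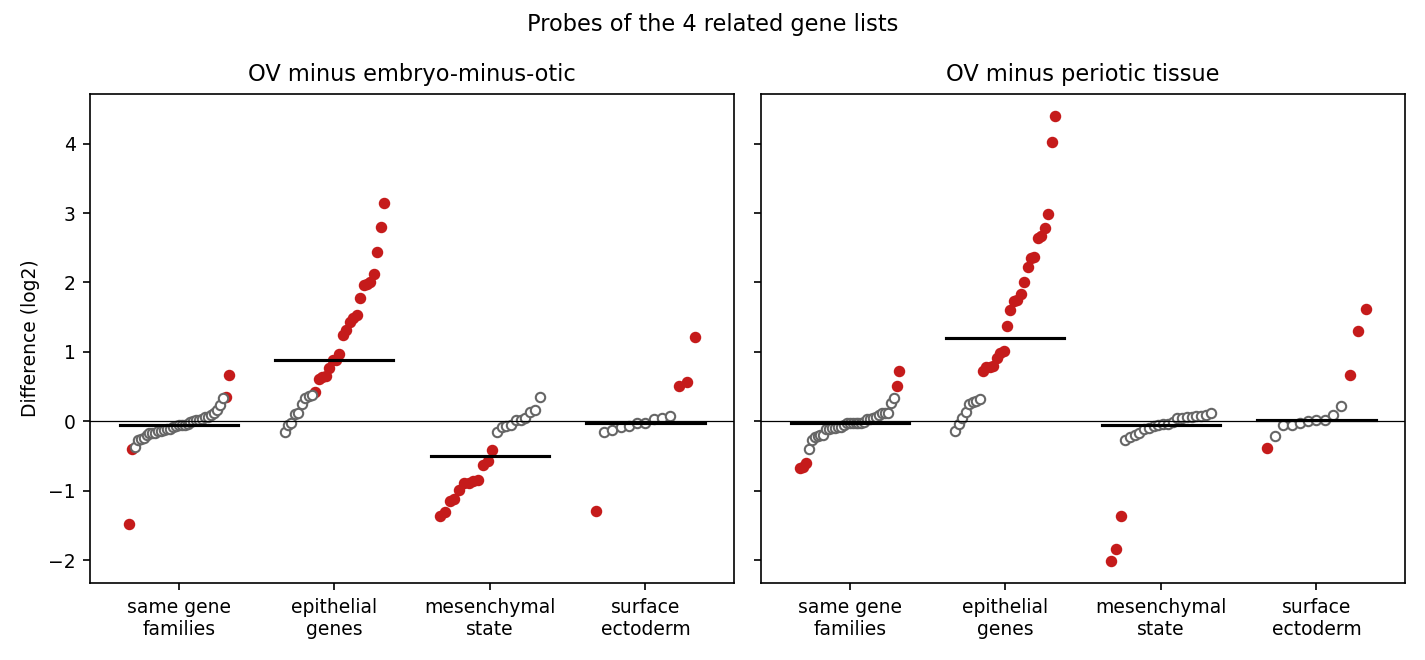
Log2 difference of each probe of 4 gene lists between OV and the remaining embryo (left) and between OV and periotic tissue (right). Red points had *q* under 0.05, open points did not, and the black lines are list medians. The epithelial list has medians of 0.88 and 1.20, and the other lists lie between -0.49 and 0.02.

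Other genes of the same families were measured by 35 probes for 23 genes. In OV, 2 were called higher and 2 lower than in the remaining embryo (5.89% and 5.51% of all probes), and 2 higher and 3 lower than in periotic tissue (5.07% and 5.15% of all probes). In periotic tissue, 1 was called higher and 2 lower than in the remaining embryo (2.86% and 2.95% of all probes). The medians were -0.06, -0.03 and -0.01. *Elf1*, an Ets factor of wide expression, was higher in OV than in either group, by 1.59-fold (limma *q* = 0.0005253) and 1.65-fold (limma *q* = 0.000267). *Klf1*, the Krüppel-like factor of red blood cells and also one of their markers here, differed by -1.48 (limma *q* = 6.136e-06) and -0.66 (limma *q* = 0.009985), and was also lower in periotic tissue than in the remaining embryo (-0.82, limma *q* = 0.003874). *Klf6* (as *Copeb*) and *Klf7* were lower in OV than in periotic tissue, by -0.65 (limma *q* = 0.0001921) and -0.59 (limma *q* = 0.009456). This *Klf6* probe was also higher in periotic tissue than in the remaining embryo (0.39, limma *q* = 0.02572), while the second *Klf6* probe, detected on all 9 arrays, was not called in any comparison (-0.39 in OV against periotic tissue, limma *q* = 0.07116). The remaining calls, named after their values were seen, were *Klf9* (as *Bteb1*, higher) and *Klf2* (lower) in OV against the remaining embryo, *Trp53* (higher) in OV against periotic tissue, and *Klf16* (lower) in periotic tissue against the remaining embryo. *Trp73*, the other relative of *Trp63*, was detected on no array.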

How the data were processed

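RNA from 9 tissue pools was hybridized to MouseRef-8 v2.0 BeadChips. The authors deposited, per probe and array, the average signal as an intensity without normalization between arrays, together with a detection p-value. Background subtraction and array scanning settings are not given in the sources used here. Intensities were log2 transformed (values under 1 set to 1, which changed none) and quantile normalized. All 25697 probes were fitted with limma 3.58.1 (R 4.3.3) as one model of 3 groups, with an empirical Bayes prior and Benjamini-Hochberg adjustment over all probes. The steps were tested on simulated data. Precision is limited by having 3 arrays per tissue.

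The genes and lists were chosen with earlier results of these data known. Besides all probes of the chosen symbols, at most 4 genes per related list were named, those with the largest difference between OV and a non-otic group among probes above background on all arrays of a group, and the 3 probes most correlated with each factor. Array symbols were matched to current ones through RefSeq synonyms. Alternatives were neqc (offset 16), median or no normalization, only probes above background, only the groups compared, a replicate block, an intensity trend, array weights, each array left out, a detection p of 0.05 and, added after seeing the data, the probes under older symbols. One gene of the related lists is not reported here.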

Additional observations from a re-analysis of the deposited data

How the results depend on the processing

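Of the 12 probes, 2 were called higher in OV than in the remaining embryo. This count was 4 with neqc (with *Elf3* and *Ovol1* added), 0 without normalization between arrays, 1 when only the 2 groups compared were fitted, and 1 to 2 when single arrays were left out. With the 5 probes under older symbols it was 5, and the count higher than in periotic tissue was 7 in place of 3. The count lower in periotic tissue than in the remaining embryo, 2, was 0 with median normalization, 1 without normalization and 1 to 2 with single arrays left out. The other counts held under every alternative within 1.5 times. With the replicate block none of the 6 counts changed, and the correlation of deviations between same-numbered arrays of different groups ranged from 0.008 to 0.182 and was over 0.1 in 5 of 9 pairs. In 16 of 18 combinations an array correlated best with its own number. This is a hint from the data that same-numbered pools may be related, but the labels do not state it and not every pair passed 0.1, so the pairing was not treated as known. *Grhl2*, *Ovol2* and *Klf5* against periotic tissue and *Trp63* against both groups kept their direction and stayed past the threshold in all 17 alternatives. *Klf5* passed in 11 of 17 in OV against the remaining embryo and in 10 of 17 in periotic tissue against it. Leaving out single arrays turned the sign of uncalled differences of *Elf3* ILMN_2692072 (OV against the remaining embryo, -0.0865 to 0.0205) and *Klf4* ILMN_2999439 (OV against periotic tissue, -0.1696 to 0.075, and periotic tissue against the remaining embryo, -0.2497 to 0.0032). Counts over all probes, and so the background shares, depended on the scaling. In OV against the remaining embryo, 1513 were higher and 1417 lower, but 1472 and 670 with median normalization and 588 and 795 without normalization. Against periotic tissue, 1302 and 1323 became 814 and 870, and 620 and 761. In periotic tissue against the remaining embryo, 736 and 757 became 812 and 315, and 325 and 371. The median of all probes moved by at most 0.0947 in size, to -0.0904 without normalization in OV against the remaining embryo. A slide block was not run, since the columns name no slides. Causes were not tested. Most of these probes lie near background, which limits the fold Δ that can be read.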
